A study of Oryza sativa with 8 samples.

Results

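Shoots of rice seedlings of the variety Varadan were compared with those of the variety Prasanna after both had been moved to a nutrient medium without nitrogen. The comparison used the 2 arrays labelled Varadan with no nitrogen and the 2 labelled Prasanna with no nitrogen, which are 4 of the 8 arrays of the study. All seedlings were raised in hydroponics, grew in Yoshida medium (the standard rice nutrient solution) with nitrogen after germination, and were then placed in Yoshida medium either without nitrogen or with supplemented nitrogen. The labels give the shoots an age of 14 days and give the nitrogen levels the codes 0 and 100. The time spent in the test media is not stated in the labels. The other 4 arrays, 2 of each variety with supplemented nitrogen, entered the model for the spread and served as a second set of shoots of the same varieties. No label says whether the 2 arrays of a group came from separate cultures, so the p-values measure the spread between these arrays, which may be technical.

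Prasanna and Varadan are released rice varieties. Varieties of a crop differ in the sequences that control transcription, in the genes they carry and in the coding sequences themselves, and transcript comparisons between varieties therefore commonly show a set of loci with large differences against a majority with small ones. A short-oligonucleotide array reads each transcript through probes designed on a reference sequence, and its signal depends on the amount of transcript and on how well the variety's sequence matches the probes. With these files those parts of a signal cannot be told apart. Plants deprived of nitrogen alter nitrate and ammonium carriers, photosynthesis, phenolic metabolism and the recycling of protein, so those pathways were examined beside all loci.

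Each array reported 57381 probe sets as log2 signals, on which a difference of 1 is a 2-fold difference in signal. Array medians ran from 5.59 to 6.26. Across the 34333 tested probe sets the Spearman correlation between the replicate arrays without nitrogen was 0.896 in Prasanna and 0.886 in Varadan. It was 0.911 between the arrays numbered 1 of both varieties and 0.909 between those numbered 2, so an array without nitrogen was ranked more like the other variety's array of its number than like its own replicate. Of the sum of squares over the 4 arrays, variety held 38.6%, replicate number 44.7% and the remainder 16.7%. The median SD between replicates was 0.47 in Prasanna and 0.46 in Varadan without nitrogen, against 0.31 and 0.26 with supplemented nitrogen. The excess of the 3′ over the 5′ signal of the glyceraldehyde-3-phosphate dehydrogenase control was 2.77 to 2.93 log2 units on all Prasanna arrays and 3.87 to 4.78 on all Varadan arrays. Its part in the variety differences was not tested. None of the 187 control probe sets passed the test (limma, smallest adjusted p 0.643), and 8 had an unadjusted p under 0.05. All 8 shoot markers were measured and none passed; their summed signal was 17.90 and 18.63 on the Prasanna arrays and 17.46 and 18.83 on the Varadan arrays, on the log2 scale. Of the 6 root markers 5 were tested and none passed, with summed signals of 10.23 and 10.35 in Prasanna and 11.03 and 10.64 in Varadan.

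Without nitrogen, 262 of 34333 tested probe sets differed between the varieties (limma, Benjamini-Hochberg adjusted p under 0.05), which is 0.763%. Of these, 150 (0.437%) were higher and 112 (0.326%) were lower in Varadan. Counted by locus, with the brightest tested probe set standing for each, 163 of 21510 loci passed (0.758%), 99 of them higher (0.46%) and 64 lower (0.298%) in Varadan. The differences were large for those that passed. Their size ran from 1.63 to 12.20 log2 units with a median of 4.85, against a median size of 0.31 over all tested loci, and 103 of the 163 differed by at least 4 units. In 62 of them the variety with the lower signal lay under 4.48, the tested level, which the mean over the 8 arrays had to reach for a probe set to be tested. Of these 62, 35 were higher and 27 lower in Varadan. The arrays of the varieties did not overlap at any of the 163 loci, as at 5889 loci in all (27.4%) and 9708 probe sets (28.3%). With any tested probe set of a locus counted in place of the brightest, 202 loci passed (0.939%). Only 9 of the 163 carry a gene symbol in the annotation used, against 2502 of the tested loci, and the rest are known here by locus identifier.

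These calls rested on a spread estimated over all 8 arrays. With the 4 arrays without nitrogen alone, no probe set passed, 1481 had an unadjusted p under 0.05 and the smallest adjusted p was 0.0549. With any 1 of the 8 arrays left out, fewer probe sets passed, and some of those were not among the 262. The split moved with the variety of the array left out, from 110 to 119 higher and 47 to 56 lower without a Prasanna array to 69 to 88 higher and 89 to 106 lower without a Varadan array. No call changed its sign in these fits. None could, since the arrays without nitrogen did not overlap between the varieties at any of the 262 probe sets.

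The loci that passed kept their direction in the seedlings given nitrogen. All 163 had the same sign there, against 60.9% of all tested loci, and 108 also passed the test there, each in the same direction. The arrays of that comparison were not those without nitrogen, but both tests used 1 spread per probe set estimated over all 8 arrays and the same choice of tested probe sets, so the calls at the 2 levels were not independent. The correlation of the differences at the 2 nitrogen levels was 0.955 across the 163 loci and 0.602 across all tested loci. Loci are not independent replicates. The 163 had been chosen by large differences, of median size 4.85 against 0.31 over all tested loci. In 62 of them the variety with the lower signal lay under 4.48. The mean that admitted those 62 to testing leaned on the other variety. The 60.9% and 0.602 over all tested loci are therefore no like comparison for the 163. The difference was larger without nitrogen at 114 of the 163 loci, which had been chosen by the test without nitrogen. The test of whether the variety difference itself differed between nitrogen levels called 0 of 34333 probe sets (0%; limma, 714 with an unadjusted p under 0.05). In that test 41 of the 163 loci had an unadjusted p under 0.05, against 352 of the 21510 tested loci. The 163 had been chosen by the difference without nitrogen, which is part of that test. The varieties with supplemented nitrogen differed at 238 probe sets (0.693%), 146 higher (0.425%) and 92 lower (0.268%) in Varadan, and at 154 loci (0.716%).

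**Figure D1:**
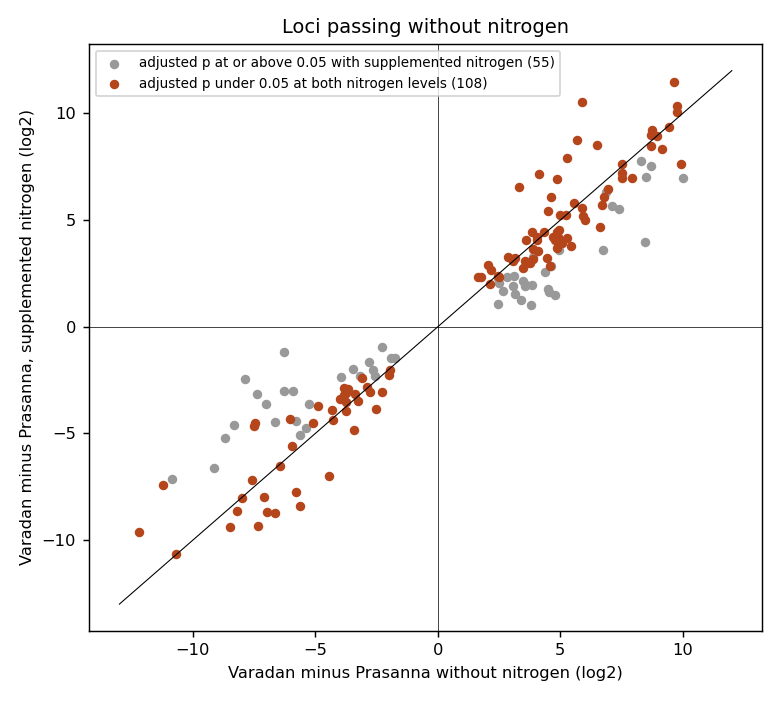
Log2 difference of Varadan minus Prasanna without nitrogen (horizontal axis) against the same difference with supplemented nitrogen (vertical axis), 1 point for each of the 163 loci that passed without nitrogen. All lie in the quadrants where the sign was the same at both levels; the 108 that also passed with supplemented nitrogen are orange and the other 55 grey.

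Among the 9 loci with a symbol that passed, ASMT1 (Os09g0344500) had the largest difference. It is annotated as an acetylserotonin O-methyltransferase, the enzyme that completes the synthesis of melatonin from serotonin. Its log2 signal without nitrogen was 0.70 and 2.13 on the Prasanna arrays and 9.67 and 11.02 on the Varadan arrays. Both Prasanna arrays lay under the tested level and both Varadan arrays far above it. The difference was 8.93 ± 0.97 (SE; limma, adjusted p = 0.0104), and with supplemented nitrogen it was 8.92 (adjusted p = 0.0113). The adjusted p was 0.0765 without replicate 2 of Varadan without nitrogen. T5H, tryptamine 5-hydroxylase, which makes serotonin from tryptamine, measured 9.43 and 9.53 in Prasanna and 11.31 and 12.60 in Varadan, a difference of 2.47 ± 0.46 that did not pass (adjusted p = 0.0801). Of 12 tested serotonin and melatonin loci 1 passed, and their median difference was 0.21 against -0.04 over all loci.

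Both phenylpropanoid loci that passed were higher in Varadan. Phenylpropanoid metabolism turns phenylalanine into lignin, flavonoids and soluble phenolics. HCT3 (Os06g0184900), a hydroxycinnamoyltransferase, which joins phenolic acids to acceptor molecules, measured 5.14 and 5.39 in Prasanna and 9.66 and 10.05 in Varadan. The groups lay far apart, each with close replicates, and differed by 4.59 ± 0.44 (adjusted p = 0.00616). A second probe set of HCT3 passed as well, at 3.84, but in only 1 of the 8 fits that left out an array, while the brighter one passed in each of the 8. With supplemented nitrogen the difference was 2.85 (adjusted p = 0.0442). LAC15 (Os10g0346300), a laccase, a copper oxidase of the family that polymerises lignin units, measured 3.93 and 4.53 in Prasanna and 8.03 and 9.53 in Varadan. Its difference was 4.55 ± 0.65 (adjusted p = 0.0299), but its other tested probe sets differed by -0.73 and 0.89 and did not pass. With supplemented nitrogen LAC15 differed by 1.63 (adjusted p = 0.593). It passed in only 1 of the 8 fits that left out an array, the fit without replicate 1 of Varadan without nitrogen. Over the 42 tested phenylpropanoid loci the median difference was -0.05, against -0.04 over all tested loci, and 20 lay above 0. Chalcone synthase (CHS), which opens the flavonoid branch, had signals of 15.16 and 14.86 in Prasanna and 14.35 and 13.80 in Varadan and did not pass (difference -0.93, adjusted p = 0.516).

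The diterpenoid phytoalexin loci had a median difference of 1.78, the highest of the 36 lists examined, though 1 of 20 tested passed, and it was lower in Varadan. These genes, many in clusters on the chromosomes, make the momilactones, phytocassanes and related antimicrobial diterpenes of rice. The locus that passed, KS2 (Os04g0611700), belongs to the kaurene synthase-like diterpene cyclases and measured 8.78 and 9.12 in Prasanna and 4.34 and 2.31 in Varadan. Both Varadan arrays lay under the tested level. Its difference was -5.63 ± 0.89 (adjusted p = 0.0459), and with supplemented nitrogen -5.06 (adjusted p = 0.0718). KS2 also passed in only 1 of the 8 fits that left out an array, again the one without replicate 1 of Varadan without nitrogen. Of the 20 loci, 16 lay above 0, and 8 of these had an unadjusted p under 0.05 and none passed; over all tested loci, 6.52% had an unadjusted p under 0.05 in either direction. CPS4, the syn-copalyl diphosphate synthase that starts momilactone synthesis, measured 1.84 and 5.98 in Prasanna and 7.64 and 9.04 in Varadan (difference 4.43 ± 1.25, adjusted p = 0.341). KSL7, the cyclase of the phytocassane branch, measured 8.40 and 7.80 in Prasanna and 9.13 and 10.67 in Varadan (difference 1.81 ± 0.53, adjusted p = 0.379). KOL4 and KOL5, cytochrome P450s of the kaurene oxidase-like family, differed by 2.83 and 4.61 without passing. These 4 loci were named for a small unadjusted p. At them the groups did not overlap, as at 27.4% of all tested loci, and the replicates of at least 1 variety were far apart. The list's median level relative to the mean of all arrays was -1.18 and -0.12 on the Prasanna arrays and -0.31 and 1.81 on the Varadan arrays, so replicate 1 of Varadan lay below replicate 2 of Prasanna. The median difference was 1.11 without replicate 1 of Prasanna, 2.53 without replicate 1 of Varadan and 0.81 without replicate 2 of Varadan. With supplemented nitrogen it was 2.10.

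In signalling, both members of the list of defence proteins and resistance loci that passed were protein kinases, and both were higher in Varadan. WNK7 (Os11g0114600), of the family of kinases named for lacking the usual catalytic lysine, measured 7.38 and 7.69 in Prasanna and 11.04 and 11.80 in Varadan. The difference of 3.89 ± 0.33 (adjusted p = 0.00404) was nearly the same with supplemented nitrogen, at 3.66 (adjusted p = 0.00474), and its other probe set gave 3.07. This call stood in each of the 8 fits that left out an array, with an adjusted p of at most 0.0234. MPK15 (Os11g0271100), a mitogen-activated protein kinase, measured 2.33 and 2.12 in Prasanna and 8.88 and 8.53 in Varadan. Its difference was 6.48 ± 0.76 (adjusted p = 0.0128) and reached 8.53 with supplemented nitrogen (adjusted p = 0.00411). The Prasanna signals of MPK15 lay under the tested level at both nitrogen levels, and the call was lost without any 1 of the 4 Varadan arrays, with an adjusted p of up to 0.183. CRK10, a cysteine-rich receptor-like kinase, measured 6.07 and 5.35 in Prasanna and 8.46 and 9.48 in Varadan. It missed the threshold at 3.26 ± 0.53 (adjusted p = 0.0515). Of the list's 60 tested loci 38 lay above 0, with a median of 0.20 against -0.04 over all tested loci.

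YSL2 (Os02g0649900) was the metal carrier that passed, and it was lower in Varadan. It moves iron and manganese complexed with nicotianamine in the phloem of rice. Its signals were 11.52 and 10.31 in Prasanna and 6.51 and 6.43 in Varadan. The groups were well separated, with the wider spread in Prasanna. The difference was -4.44 ± 0.54 (adjusted p = 0.0161) and with supplemented nitrogen -7.01 (adjusted p = 0.00263), where Prasanna stood at 12.79 and 13.89 and Varadan at 6.74 and 5.92. The call without nitrogen was lost without replicate 1 of Prasanna or either Varadan array of that level, with an adjusted p of up to 0.0723. The other 50 tested metal transport loci did not pass, and the list's median was 0.10. IRT2, an iron carrier of the ZIP family, measured 5.24 and 4.93 in Prasanna and 7.26 and 6.10 in Varadan (difference 1.60, adjusted p = 0.672).

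Among chromatin and stress-protein loci, H2B.10 (Os01g0152300), a histone H2B, measured 9.71 and 9.79 in Prasanna and 11.52 and 12.06 in Varadan. It differed by 2.04 ± 0.29 (adjusted p = 0.0298) and by 2.91 with supplemented nitrogen (adjusted p = 0.00711). Another histone H2B locus, H2B.4, had signals of 12.99 and 13.41 in Prasanna and 12.20 and 12.53 in Varadan, a difference of -0.83 that did not pass (adjusted p = 0.549). Histone genes are near-identical copies of each other, and their probe sets may share signal. BURP2 (Os05g0217800), named for the plant BURP domain, measured 9.44 and 10.49 in Prasanna and 12.71 and 14.02 in Varadan. Its difference was 3.40 ± 0.52 (adjusted p = 0.0392), while its other probe set gave 1.17. With supplemented nitrogen BURP2 stood at 13.48 and 13.96 in Prasanna and at 14.76 and 15.18 in Varadan, and the difference of 1.25 did not pass (adjusted p = 0.637). H2B.10 and BURP2 each passed in only 1 of the 8 fits that left out an array, the one without replicate 1 of Varadan without nitrogen. OC-X, a cystatin (an inhibitor of cysteine proteases), had signals of 6.85 and 5.85 in Prasanna and 11.61 and 9.54 in Varadan and did not pass (difference 4.22, adjusted p = 0.0719).

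**Figure D2:**
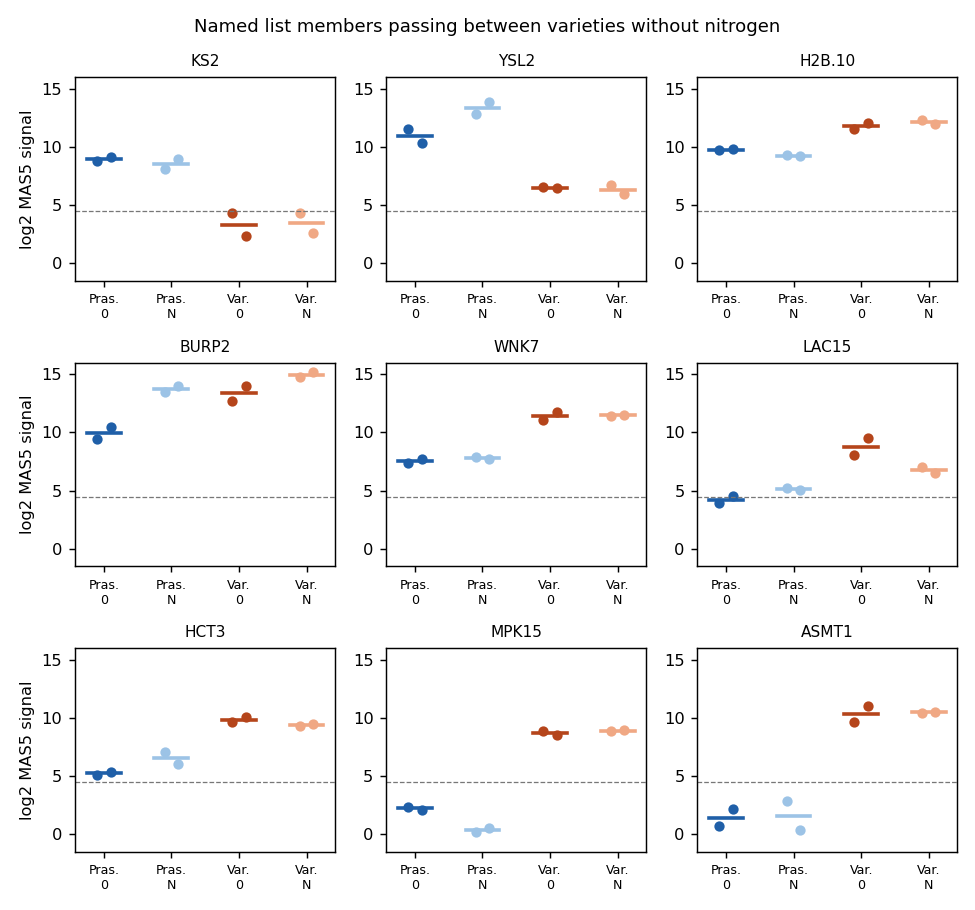
Log2 signal on each of the 8 arrays for the 9 list members that passed between the varieties without nitrogen, 1 panel per locus (Pras. and Var., variety; 0, without nitrogen; N, supplemented). Points are arrays, bars the mean of the 2 arrays of a group, and the dashed line the level of 4.48 that a mean over the arrays had to reach for testing; ASMT1 and MPK15 lay under that line on every Prasanna array.

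The largest differences belonged to loci without a symbol. Os02g0216300 was lowest in Varadan relative to Prasanna, with signals of 13.31 and 14.83 in Prasanna and 1.52 and 2.23 in Varadan. This was a bright transcript in Prasanna and a signal under the tested level in Varadan, a difference of -12.20 ± 0.52 (adjusted p = 0.000725). Its 3 other probe sets were lower in Varadan as well, by -9.27, -10.54 and -3.08. Os02g0590400 measured 13.58 and 13.47 in Prasanna and 1.93 and 2.71 in Varadan, and Os10g0186800 measured 11.35 and 11.65 in Prasanna and 1.54 and 0.09 in Varadan. Their differences were -11.20 and -10.69. With supplemented nitrogen the Varadan signals of Os02g0590400 were 6.14 and 4.97, while those of Os10g0186800 were 1.16 and 0.83. The other loci among the 12 most lowered were Os01g0942850, Os12g0180900, Os04g0458400, Os01g0541000, Os01g0119500, Os10g0159300, Os11g0660400, Os02g0522100 and Os07g0110100, with differences from -10.87 to -7.58.

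In the other direction, Os07g0217600 had the smallest adjusted p, with signals of 2.47 and 3.12 in Prasanna and 12.16 and 12.30 in Varadan. Its difference was 9.43 ± 0.40 (adjusted p = 0.000725) without nitrogen and 9.35 with it, and a second probe set of the locus gave 13.52. Os12g0105600 had the largest difference by locus, 10.01 ± 1.15 (adjusted p = 0.0122), from 1.43 and 1.50 in Prasanna to 11.33 and 11.62 in Varadan. A probe set that the annotation pairs with both Os12g0105600 and Os11g0106100 differed by only 0.99 (adjusted p = 0.853), with signals of 11.24 and 10.00 in Prasanna and 11.47 and 11.74 in Varadan. Os11g0203900, Os03g0722200, Os04g0616900, Os12g0514000, Os09g0319701, Os06g0160001, Os06g0322300, Os06g0318533 and Os06g0197200 completed the 12 with ASMT1, at 9.92 down to 8.69. The other probe set of Os11g0203900 differed by 2.70 and did not pass (adjusted p = 0.209). A probe set paired with both Os06g0160001 and Os06g0160100 was bright on all arrays, with 12.69 and 14.14 in Prasanna and 12.52 and 13.16 in Varadan without nitrogen, and differed by -0.57 without passing. Of the 24 loci named for their size, Os01g0942850, Os12g0180900, Os04g0458400, Os01g0119500 and Os02g0522100 among those lower in Varadan, and Os12g0105600 and Os06g0322300 among those higher, had an adjusted p at or above 0.05 with supplemented nitrogen, with the same sign throughout. In each of the 8 fits that left out an array, Os02g0216300, Os02g0590400, Os10g0186800 and Os01g0541000 passed among the 12 lower in Varadan, and Os11g0203900, Os03g0722200, Os04g0616900, Os12g0514000, Os07g0217600, Os09g0319701, Os06g0318533 and Os06g0197200 among the 12 higher. The others lost the call in 1 to 6 of these fits, with an adjusted p of up to 0.267 at Os06g0322300.

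Probe sets of 1 locus did not always show the same difference. Of the 163 loci, 120 had 1 tested probe set and 43 had more. Those 43 had 59 other probe sets, of which 49 had the same sign, 14 passed in the same direction and 1 passed in the opposite direction. At 3 loci, chosen after their values were seen, probe sets passed in opposite directions. Os07g0468100 had a probe set with 12.20 and 11.43 in Prasanna and 4.02 and 5.57 in Varadan, and another with 5.73 and 5.56 in Prasanna and 11.79 and 13.04 in Varadan. The first was 7.02 log2 units brighter in Prasanna and the second 6.77 brighter in Varadan. At Os12g0552500 a pair of probe sets differed by -9.36 and -8.15 and another by 11.89, while the remaining one, bright on all arrays, differed by -0.70. At Os05g0168400 the differences were 7.29 and -5.10, and another probe set gave 0.05, with signals of 11.40 and 11.70 in Prasanna and 11.57 and 11.63 in Varadan. All 3 loci had the same pattern with supplemented nitrogen, so each variety was bright on the probe set on which the other was dim. The calls at Os07g0468100 and Os12g0552500 stood in each of the 8 fits that left out an array, while at Os05g0168400 the 7.29 was lost in 2 and the -5.10 in 6.

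**Figure D3:**
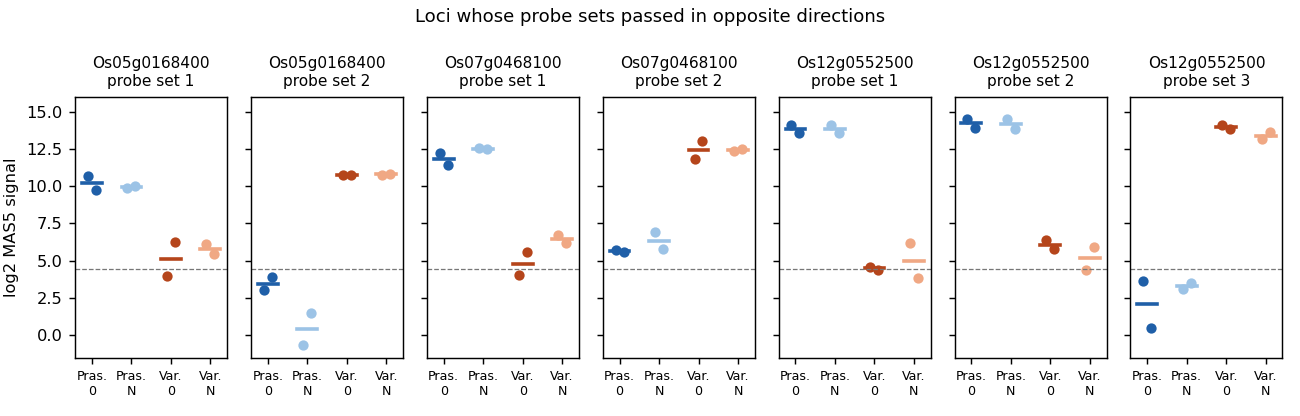
Log2 signal by array for the probe sets that passed at the 3 loci where they did so in opposite directions, 1 panel per probe set (Pras. and Var., variety; 0, without nitrogen; N, supplemented). Points are arrays, bars the mean of the 2 arrays of a group and the dashed line the level of 4.48; at each locus a probe set bright in Prasanna and dim in Varadan stands beside one with the reverse pattern at both nitrogen levels.

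A further 4 loci with symbols, also chosen after their values were seen, differed on a probe set that was not the brightest of its locus. TPP7, a trehalose-6-phosphate phosphatase known in rice for growth of germinating seeds under water, had a probe set with 8.62 and 8.45 in Prasanna and 1.77 and 3.47 in Varadan, a difference of -5.92. Its brightest probe set measured 10.38 and 11.11 in Prasanna and 10.30 and 10.99 in Varadan and differed by -0.10. Cht2, a chitinase, had a probe set with 5.56 and 4.71 in Prasanna and 12.24 and 11.10 in Varadan, a difference of 6.54, while its others differed by -1.02 and 1.63. AldC-1, a fructose-bisphosphate aldolase, differed by 6.88 on one probe set and by -0.03 and -0.15 on the others. For these 3 loci the brightest probe set did not separate the varieties. XBOS36, an ankyrin-repeat protein, differed by -2.91 on one probe set and by -1.77 on the other, which did not pass. Of these calls, that of Cht2 stood in each of the 8 fits that left out an array, and those of TPP7, XBOS36 and AldC-1 were lost in 4, 7 and 8 of them.

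Loci that passed were found on all 12 chromosomes. By chromosome, from the number in the locus identifier, the share of tested loci that passed was lowest on chromosome 3 (0.246%) and highest on chromosomes 6 (1.4%), 9 (1.34%) and 12 (1.18%). Chromosome 9 held 14 loci higher and 2 lower in Varadan. Neighbouring tested loci passed together in 8 runs, 7 of 2 loci and 1 of 3. The run of 3 lay on chromosome 7, where Os07g0110600, Os07g0110800 and Os07g0110900 were all higher in Varadan. Os07g0110600 measured 1.01 and 4.67 in Prasanna and 9.46 and 11.02 in Varadan (difference 7.40 ± 1.11, adjusted p = 0.0374). Os07g0110800 measured 8.17 and 8.37 in Prasanna and 12.06 and 12.57 in Varadan (difference 4.04 ± 0.31, adjusted p = 0.00256). Os07g0110900 measured 8.34 and 8.28 in Prasanna and 10.41 and 11.13 in Varadan (difference 2.46 ± 0.34, adjusted p = 0.0286). The groups did not overlap at any of the 3, nor at any other of the 163 loci that passed. Over all tested loci they did not overlap at 27.4%. Os07g0110800 passed in each of the 8 fits that left out an array, whereas Os07g0110600 lost the call in 6 and Os07g0110900 in 7. Another probe set of Os07g0110600 differed by 11.28 and passed in each of the 8 fits. Its remaining probe set differed by 8.26 without passing. Close by, Os07g0110100 went the other way, with 8.20 and 9.66 in Prasanna and 1.52 and 1.18 in Varadan. The pairs were Os12g0105600 with Os12g0105800, Os04g0477900 with Os04g0478000, Os06g0273800 with Os06g0274000, Os06g0322300 with Os06g0323100 and Os09g0129500 with Os09g0129600, all higher in Varadan, and Os06g0118700 with Os06g0119100 and Os10g0158700 with Os10g0159300, all lower. Os12g0105800 differed by 8.45, Os04g0477900 by 5.54, Os04g0478000 by 6.70 and Os10g0158700 by -6.29.

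**Figure D4:**
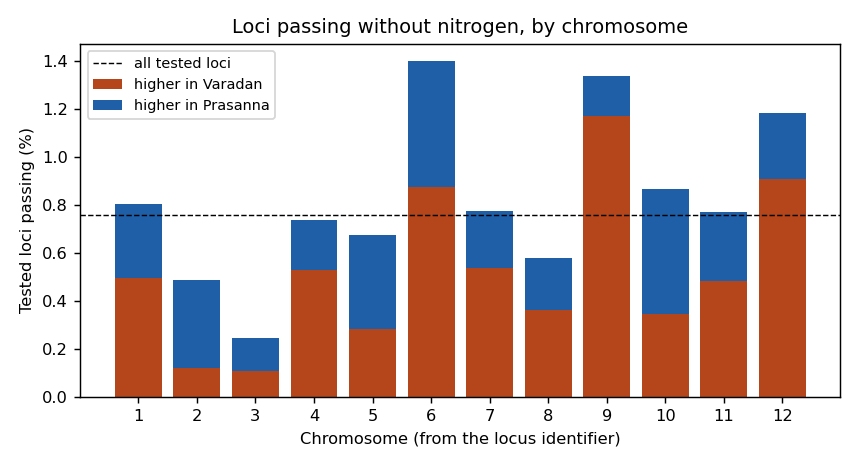
Percent of tested loci that passed between the varieties without nitrogen (vertical axis) on each chromosome (horizontal axis), with the part higher in Varadan in orange and the part higher in Prasanna in blue. The dashed line is the share over all tested loci (0.758%); chromosomes 6, 9 and 12 stand highest above it, and the bar of chromosome 9 is mostly orange.

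No tested gene of nitrogen uptake and use passed. Over all tested loci 0.758% passed, so lists of this size would mostly hold no locus that passed. None of 5 tested nitrate loci passed, with a median difference of 0.12, and none of 16 ammonium loci, with a median of 0.21. NIA1, a nitrate reductase, measured 13.31 and 13.08 in Prasanna and 13.01 and 13.55 in Varadan without nitrogen, and the varieties overlapped. NAR2.2, which assists nitrate carriers of the high-affinity type, had signals of 10.67 and 4.25 in Prasanna and 9.67 and 9.52 in Varadan, so its difference of 2.14 ± 1.76 rested on a single low array. AMT3-3, an ammonium transporter, measured 6.76 and 7.46 in Prasanna and 8.90 and 10.34 in Varadan. Its difference of 2.51 ± 0.77 had an adjusted p of 0.430. GLN1-2, a cytosolic glutamine synthetase, differed by 0.44 ± 0.25. No member passed among 9 regulators tied to nitrogen supply, 10 loci of urea and purine nitrogen or 3 of amino acid carriers and proline.

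No locus of photosynthesis or of the cytosolic ribosome passed. At the 0.758% of all tested loci, lists of this size would mostly hold none. The 15 light reaction loci ranged from -0.58 to 0.57 with a median of -0.13. Their median level relative to the mean of all arrays was -0.52 and -0.09 in Prasanna and -1.14 and 0.26 in Varadan. The 14 of carbon fixation and photorespiration ranged from -0.55 to 2.12 with a median of -0.18. There the levels were -0.96 and 0.18 in Prasanna and -1.14 and 0.26 in Varadan. With supplemented nitrogen the median differences were 0.57 and 0.30, and 4 loci of each list kept their sign. Of 23 cytosolic ribosomal proteins 20 lay below 0, with a range from -0.44 to 0.22 over all 23, and none passed. The median of these 23 was -0.28, and that of all tested loci was also below 0, at -0.04. The list's median level relative to the mean of all arrays was 0.19 and -0.18 on the Prasanna arrays. On the Varadan arrays it was -0.08 and -0.35, so replicate 1 of Varadan lay above replicate 2 of Prasanna. With supplemented nitrogen the list's median difference was -0.03. The 36 lists together held 1004 tested loci, of which 9 passed (0.896%, against 0.758% of all tested loci) and 73 had an unadjusted p under 0.05 (7.27%, against 6.52%). The lists hold only loci with a symbol. Of the 2502 tested loci with a symbol, 9 passed, all of them list members. The lists were chosen with earlier results known, so these shares are no test of the lists. Hormone lists had no member that passed, although CM-LOX1 and CM-LOX2, lipoxygenases, had differences of 2.66 and 1.79. CM-LOX2 measured 9.06 and 9.10 in Prasanna and 10.79 and 10.95 in Varadan (adjusted p = 0.105). The jasmonate list's median of 0.22 was 0.98 without replicate 1 of Prasanna, 1.06 without replicate 2 of Varadan, and -0.27 and -0.26 without the other array of each variety.

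**Figure D5:**
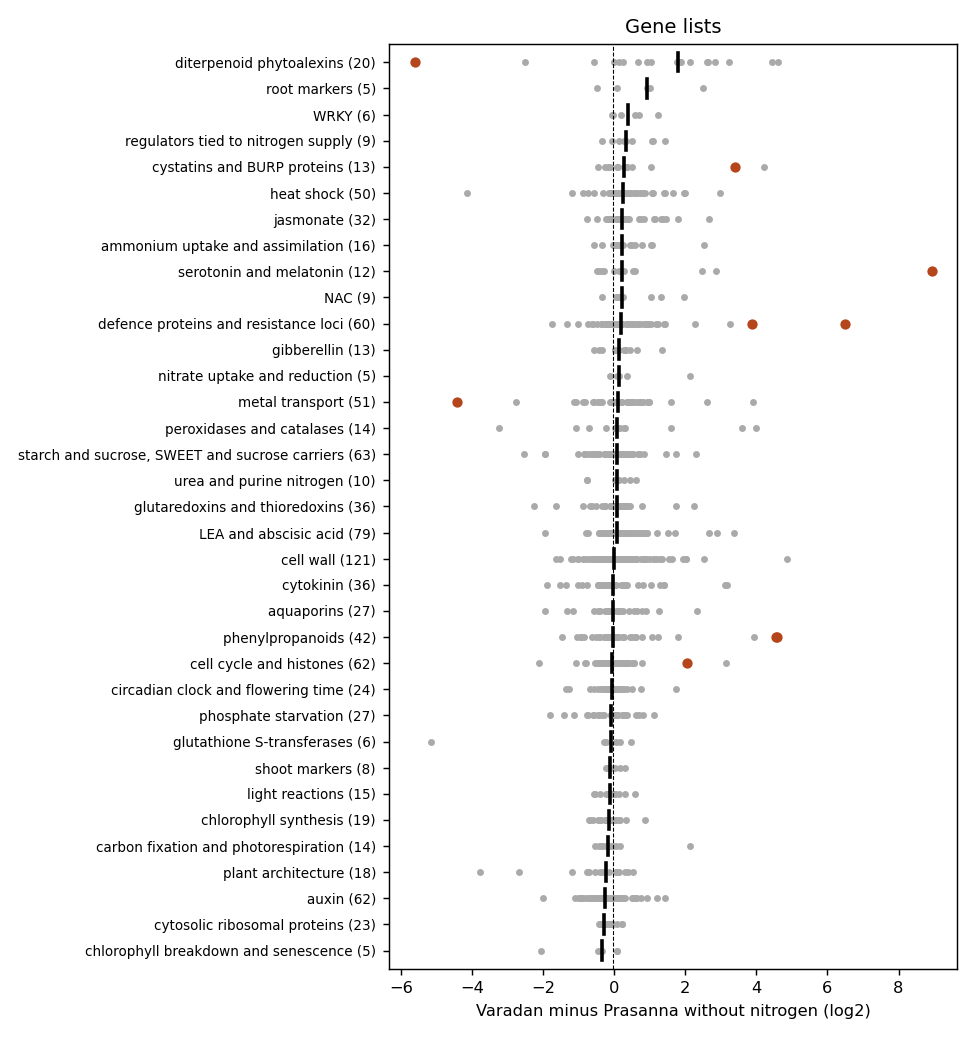
Log2 difference of Varadan minus Prasanna without nitrogen for the tested loci of each gene list with at least 5 (number in brackets), 1 point per locus, orange where it passed, with a bar at the list's median and a dashed line at the median of all tested loci (-0.04). The bar of the diterpenoid phytoalexins is farthest to the right, at 1.78, while the locus of that list that passed lies at -5.63.

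Other loci came close to the threshold without passing. In the cell wall list MAN7, a mannanase that cuts cell wall mannans, measured 7.70 and 6.45 in Prasanna and 10.48 and 13.39 in Varadan (difference 4.86, adjusted p = 0.0727), and BGLU13, a beta-glucosidase, differed by 2.01 (adjusted p = 0.0692). DJA6, a DnaJ co-chaperone, measured 12.46 and 12.65 in Prasanna and 13.90 and 14.06 in Varadan, a difference of 1.42 with close replicates (adjusted p = 0.0744). GRXS4, a glutaredoxin, measured 10.16 and 10.69 in Prasanna and 7.60 and 8.71 in Varadan (difference -2.27, adjusted p = 0.0777). MCM9, of the replication helicase family, measured 4.26 and 5.16 in Prasanna and 8.12 and 7.61 in Varadan (difference 3.15, adjusted p = 0.0751). Farther from the threshold, GBSS-I, the granule-bound starch synthase that makes amylose, differed by -1.95 (adjusted p = 0.455) and MADS14, a flowering regulator, by -1.28 (adjusted p = 0.443).

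No locus passed the test of a difference between nitrogen levels, and those with the smallest unadjusted p are given as values. Os03g0341600 measured 8.88 and 8.53 in Prasanna and 11.58 and 10.69 in Varadan without nitrogen, and 10.09 and 9.11 in Prasanna and 8.60 and 8.75 in Varadan with it. The variety difference was 2.43 without nitrogen and -0.93 with it, 3.36 apart (limma, adjusted p = 0.9999). Os09g0340400 was higher in Varadan by 5.89 without nitrogen and by 10.52 with it, and its Prasanna signals were 4.75 and 5.37 without nitrogen against -0.06 and 1.71 with it. Os01g0564300 differed between the varieties by 5.68 without nitrogen and by 8.75 with it, with Prasanna signals of 6.10 and 5.22 without nitrogen, and its other probe set differed by -0.11 without nitrogen. In the last pair of loci the Prasanna signals with supplemented nitrogen lay under the tested level, while Varadan was above 10 on all 4 of its arrays.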

How the data were processed

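The deposited table holds log2 signals of 57381 probe sets on 8 Affymetrix rice arrays, summarised with MAS5 per the submitters' processing notes (version and scanner settings are not given in the sources used here). A second deposited table holds the same signals as linear intensity values and matched the log2 table within 3e-08 after log2, so only the log2 table was used. MAS5 subtracts mismatch signal, which widens the spread of dim probe sets, and every array was scaled to one target (trimmed mean 500). The 187 control probe sets were left out, and a probe set was tested if its mean reached the 40th percentile of all means (4.48). Limma 3.58.1 in R 4.3.3 (lmFit, eBayes with trend) fitted 1 mean per group to 8 arrays with 4 residual degrees of freedom, 2-sided, with Benjamini-Hochberg adjustment over all tested probe sets. Errors are standard errors. For arrays, their number limits the precision.

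Of the probe sets, 34860 were paired with 1 locus, 567 with several and 21767 with none. Symbols came from RefSeq (assembly ASM3414082v1), where the gene IDs of 30586 probe sets with 1 locus were found. The tested probe set with the highest mean stood for a locus. Named were the 12 largest loci in each direction that passed, did not overlap and reached the median tested signal (7.97) in the higher group, the same for loci with a symbol, list members that passed with up to 4 others per list, the smallest p of the test between nitrogen levels, and runs of 3 neighbours. The members and lists were chosen with earlier results of these data known. Alternatives were other filters, scalings, weights, blocks, probe sets and left-out arrays.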

Additional observations from a re-analysis of the deposited data

Results flagged for a closer look

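A control probe set for an Escherichia coli reporter sequence showed a different variety difference at the 2 nitrogen levels, by a test of that difference over the 187 control probe sets (limma). Varadan minus Prasanna was -4.85 without nitrogen and 4.35 with supplemented nitrogen, so the difference between levels was -9.20 ± 2.26 (SE, adjusted p = 0.0233). Its log2 signals were 3.74 and 4.28 in Prasanna and -1.66 and -0.02 in Varadan without nitrogen, and 0.29 and 0.42 in Prasanna and 4.14 and 5.27 in Varadan with nitrogen, around or under the level of 4.48 used to choose probe sets for testing.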

How the results depend on the processing

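In every fit listed here the 262 probe sets kept their sign, so far as they were in the tested table, while their number varied. The arrays without nitrogen did not overlap between the varieties at any of the 262, so leaving out arrays could not change a sign. The count was 0 with only the 4 arrays without nitrogen, 173 with a stricter filter (60th percentile), 408 with an offset of 32 on the linear scale, 155 with array weights, 904 with the replicate block within nitrogen level and 158 to 194 when each array was left out in turn. It stayed within 1.5 times with no filter (276), quantile normalization (253), median centring (328), no trend (223), the replicate block (295), without both arrays numbered 1 (351) and without both numbered 2 (286). Some probe sets counted in these fits were not among the 262, except with the stricter filter, array weights and the 4 arrays alone. The labels do not say what a replicate number stands for. The deviations of same-numbered arrays correlated at 0.46 between the varieties without nitrogen but at 0.02 with supplemented nitrogen, 0.11 across nitrogen levels in Prasanna and -0.04 in Varadan. With the replicate block within nitrogen level, 7 of the 20 diterpenoid phytoalexin loci passed, against 1. Under that block 2 jasmonate and 3 cell wall loci passed, against 0 in each list, and 3 defence loci, against 2. No ammonium locus passed under it. Among the loci picked by the naming rules that had not passed, 24 did under that block. The count of 238 with supplemented nitrogen was 129 with the stricter filter, 410 with the offset, 572 with array weights, 878 with the block within nitrogen level, 739 without both arrays numbered 1 without nitrogen, 626 without both numbered 2, and 42 to 278 when each array was left out in turn. The test between nitrogen levels called 0 under each alternative. The probe sets that passed in 1 direction at both levels numbered 172, and 39 to 557 over the alternatives. Another probe set of the locus passed in the opposite direction at Os07g0468100 (-7.02). Others had the opposite sign without passing at LAC15 (Os10g0346300, -0.73 ± 1.39) and Os01g0564300 (-0.11). Of the 163 loci that passed, 9 had another tested probe set of the opposite sign. Of 38 named loci that passed, 17 did so in each of the 8 fits that left out an array, and of all 163 loci 52 did. The causes of these changes were not tested. With 2 arrays a group, the number of arrays limits the precision, and signals near or under 4.48 are widely spread on the log2 scale.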
